A study of Mus with 9 samples.

Results

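The genes described here encode the NADPH oxidases, the enzymes that move electrons from NADPH across a membrane to oxygen and release superoxide or hydrogen peroxide. The 8 members were chosen by gene symbol, from 54532 genes in the deposited table. Of them, 5 belong to the oxidase of phagocytes (Cybb, Cyba, Ncf1, Ncf4 and Rac2) and 3 are the catalytic subunits Nox1, Nox4 and Duox2 of other tissues. Kidney RNA of 9 male C57BL/6 mice was sequenced, with 1 library per mouse and 3 mice in each group. All mice had 1 kidney removed at 18 months of age. The 18 mo group was killed 1 week later, the 21 mo group received saline intraperitoneally every day for 12 weeks, and the 21 mo/O304 group received O304, a small-molecule activator of the energy-sensing kinase AMPK, at 10 mg/kg/day over the same time. Age, time since surgery and injections therefore cannot be told apart in a comparison with the 18 mo group, and the remaining kidney was the only one in every mouse.

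In phagocytes the catalytic subunit gp91phox, encoded by Cybb, sits in the membrane with p22phox, encoded by Cyba. It is silent until cytosolic subunits, among them p47phox (Ncf1) and p40phox (Ncf4), and the small GTPase Rac2 join it, and loss of these subunits causes chronic granulomatous disease or related immune defects. Nox4 was first described in the kidney, where the tubules express it strongly. It needs p22phox but none of the cytosolic subunits, is active whenever it is present, and releases mostly hydrogen peroxide.

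The level of each gene was compared first between genes, in FPKM, the authors' unit that divides a count by gene length and library size. Cyba was the most abundant member, from 254.9 to 540.3 FPKM over the 9 libraries. Nox4 followed with 18.5 to 44.8 FPKM, below Cyba in every library and without overlap. Cybb lay between 1.93 and 11.4 FPKM, Rac2 between 2.70 and 7.83, Ncf1 between 1.54 and 11.0 and Ncf4 between 0.959 and 7.85, so the ranges of these 4 overlapped each other and all lay below that of Nox4. Rac1, the widely expressed relative of Rac2, was at 39.9 to 48.2 FPKM, a range that overlapped that of Nox4, though Rac1 shares part of its span with genes on the opposite strand. Cybb reached 6.06% to 10.5% of the Nox4 level per length at 18 mo, 12.6%, 19.3% and 61.4% in 21 mo replicates 1, 2 and 3, and 8.75% to 13.3% with O304.

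Nox1, the oxidase best known from the colon, and Duox2, which makes hydrogen peroxide in thyroid and gut epithelium, were close to absent from the counts. Nox1 had 6 reads in all, and at most 2 in any library. Duox2 had 1 read, in replicate 3 of the 21 mo group. Both stayed under the floor of 3 counts in every library, which at these depths allows up to 0.137 to 0.201 CPM (a count scaled to the library total, normalized by edgeR's TMM method), so no fold change is given for either and no difference was detectable at this depth. The other 6 members passed the filter on low counts, with at least 32 counts in every library. Nox1 shares its span with Cstf2, Xkrx and Arl13a, and those few reads cannot be assigned with certainty.

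The libraries held 15636378 to 18396725 counts on genes. The 21 mo mice differed more from each other than the mice of the other groups. The biological coefficient of variation across genes was 44.1% at 21 mo, 18.1% at 18 mo and 20.6% with O304, and the lowest correlation of log2 CPM between replicates was 0.881, for 21 mo replicates 1 and 3. Each comparison below was fitted over 15902 genes and all 9 libraries with edgeR's quasi-likelihood test, and an adjusted p (Benjamini-Hochberg over all genes) under 0.05 was taken as the threshold. Single comparisons of 3 mice against 3 were made with an exact permutation test on log2 CPM, two-sided, for which the smallest possible p is 0.1. Replicates are separate mice, so the spread includes that between animals.

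The first comparison, 21 mo against 18 mo, asks how the oxidase genes stood at the later age. The catalytic and cytosolic phagocyte subunits were all higher at 21 mo and Cyba was lower, without overlap between the groups' mice, while Nox4 overlapped. None of the 6 tested members passed the threshold in edgeR, where 0.0189% of all genes did, and 5 of the 6 had an unadjusted p under 0.05, against 26.1% of all genes. Of these 4 were higher and 1 lower, where 14% and 12% of all genes were. DESeq2 called 5 of them and 11.7% of all genes, limma voom with sample quality weights called 5 and 52.9%, and edgeR with no filter on low counts called 3 and 2.04%. Of the 6 members, 4 lay higher in every 21 mo mouse than in every 18 mo mouse and 1 lay lower, against 13.5% and 15.3% of all genes, and 52.7% of all genes had a higher fitted value. The median log2 fold change (log2FC) of the 5 phagocyte subunits was 1.49, and that of all tested genes was 0.03. RNA of kidney tissue was sequenced, and the paper does not state the region of the kidney that was sampled. A different number of cells of a type and a different amount of RNA per cell therefore cannot be told apart.

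Cybb lies on the X chromosome (chrX:9435252-9487771, minus strand, GRCm38 coordinates of the authors' table) and overlaps no other annotated gene. Its level was 14.6, 11.4 and 21.0 CPM in the 18 mo mice, 31.8, 31.6 and 68.6 CPM in the 21 mo mice and 19.8, 35.8 and 20.1 CPM in the 21 mo/O304 mice. Every 21 mo mouse was thus above every 18 mo mouse, and replicate 3 held more than any other library. The fitted log2FC of Cybb in 21 mo against 18 mo was 1.49 (SE 0.38, adjusted p = 0.0789, edgeR). Without replicate 3 of the 21 mo group it was 1.00, and without replicate 1 it passed the threshold at 1.70 (adjusted p = 0.0182), where 25.4% of all genes and 5 members did.

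Of the cytosolic subunits, Ncf1 encodes the organizer p47phox, which is phosphorylated on activation and carries the complex to the membrane. It lies on chromosome 5 (chr5:134220053-134229625) and overlaps Gtf2ird2 on the opposite strand, and since the strand setting of the authors' counting is not stated its reads are less certain than those of Cybb. Ncf1 was at 6.87, 5.85 and 5.83 CPM at 18 mo, at 8.76, 13.5 and 41.9 CPM at 21 mo and at 7.73, 8.70 and 6.43 CPM with O304. The 18 mo mice were close together, and the 21 mo mice spread upward from just above them. Its log2FC of 1.79 (SE 0.50, adjusted p = 0.0860, edgeR) was the largest of the members and was 0.83 without replicate 3 of the 21 mo group.

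Ncf4 encodes p40phox, which binds a phosphoinositide of phagosomes and sustains the burst inside them. It lies on chromosome 15 (chr15:78244801-78262580), 296586 bases from Rac2 (chr15:78559167-78572783). Ncf4 was at 3.28, 1.97 and 4.92 CPM in the 18 mo mice and 5.95, 7.16 and 16.5 CPM in the 21 mo mice, a log2FC of 1.54 (SE 0.45, adjusted p = 0.0905, edgeR). Rac2, the GTPase of blood cells that switches the complex on, was at 8.73, 8.63 and 12.4 CPM in the 18 mo mice. It was at 23.5, 18.1 and 25.2 CPM in the 21 mo mice, a log2FC of 1.16 (SE 0.29, adjusted p = 0.0775, edgeR). Rac2 differed from Ncf1 and Ncf4 in that replicate 3 did not stand apart from the other 21 mo mice. Its fold change ranged from 1.05 to 1.38 when single libraries were left out, against 0.83 to 2.18 for Ncf1 and 0.93 to 1.93 for Ncf4.

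Cyba was lower instead. It encodes p22phox, the membrane partner that stabilizes gp91phox and is also needed by Nox1 and Nox4, and it lies on chromosome 8 (chr8:122424776-122432930), where it overlaps Gm20388 on the opposite strand. The reads of Cyba therefore carry the same doubt as those of Ncf1. Cyba was at 528, 572 and 535 CPM in the 18 mo mice, at 390, 337 and 275 CPM in the 21 mo mice and at 397, 374 and 459 CPM in the 21 mo/O304 mice. Every mouse of both older groups was below every 18 mo mouse. The log2FC of Cyba in 21 mo against 18 mo was −0.71 (SE 0.18, adjusted p = 0.0775, edgeR), and it stayed between −0.81 and −0.60 with any 1 library left out. The mouse with the most Cybb, replicate 3 of the 21 mo group, had the least Cyba.

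Nox4, on chromosome 7 (chr7:87246096-87398710, plus strand), overlaps no other annotated gene. It was at 203, 274 and 369.5 CPM in the 18 mo mice, at 367, 239 and 163 CPM in the 21 mo mice and at 292, 391 and 335 CPM in the 21 mo/O304 mice. The 18 mo and 21 mo ranges covered almost the same interval. Its log2FC of −0.14 (SE 0.32, adjusted p = 0.805, edgeR) was smaller than the spread within either group, with p = 0.7 in the exact permutation test, and became 0.09 without replicate 3 of the 21 mo group and 0.12 without replicate 3 of the 18 mo group. Replicate 3 of the 21 mo group, the mouse with the most Cybb, had the least Nox4.

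**Figure D1:**
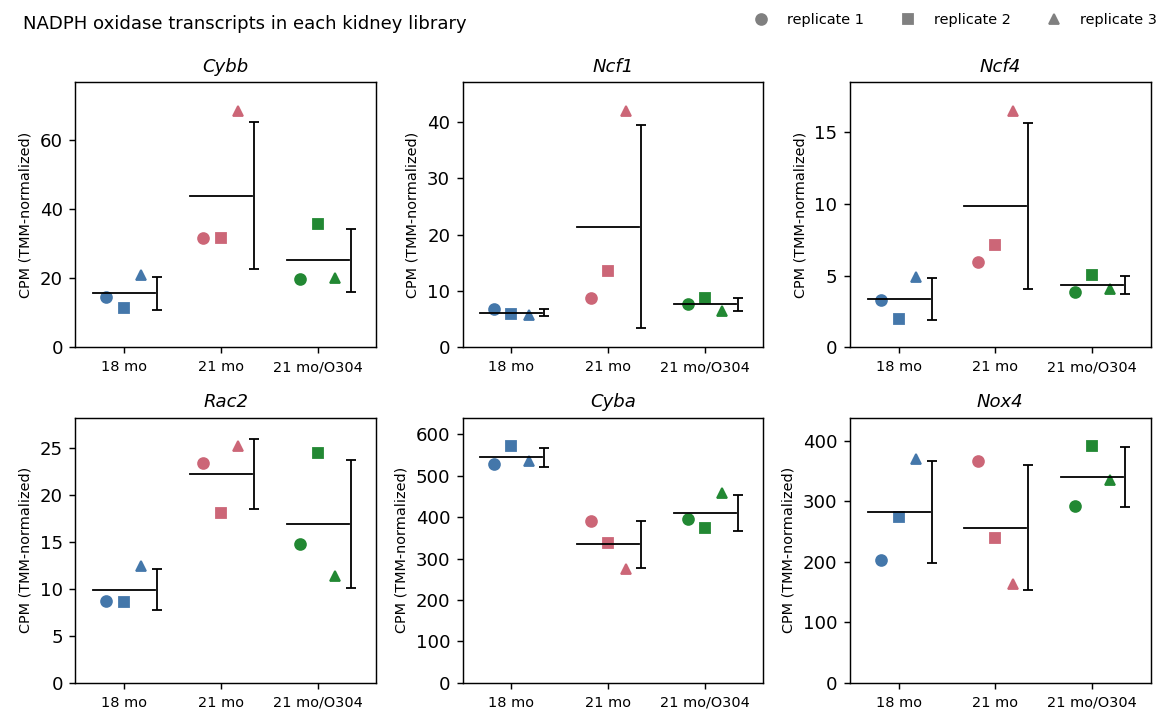
Level of the 6 tested members in each library, in TMM-normalized CPM (vertical axis from 0, a scale per panel), for the 18 mo, 21 mo and 21 mo/O304 groups. Points are mice, shaped by replicate number, the horizontal line is the group mean and the bar 1 SD (n = 3): Cybb, Ncf1, Ncf4 and Rac2 lay higher in all 21 mo mice than in all 18 mo mice, Cyba lay lower, and Nox4 overlapped between all groups.

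To set the phagocyte oxidase against Nox4 within each mouse, log2 CPM of Nox4 was subtracted from that of each phagocyte subunit. For Cybb this log2 ratio was −3.79, −4.57 and −4.13 in the 18 mo mice and −3.52, −2.91 and −1.25 in the 21 mo mice. All 3 mice of the 21 mo group were above all 3 of the 18 mo group, and the means differed by 1.60 (exact permutation test, p = 0.1, adjusted p = 0.273 over 15 such tests). The ratio of Rac2 to Nox4 differed by 1.34 without overlap (exact permutation test, p = 0.1). Those of Ncf1 and Ncf4 were higher by 1.63 each but overlapped the 18 mo mice through replicate 1 of the 21 mo group (exact permutation test, p = 0.2 for both). Cyba to Nox4 differed by −0.54 (exact permutation test, p = 0.2). The difference for Cybb to Nox4 was 0.95 without replicate 3 of the 21 mo group and 2.08 without its replicate 1. The ratio of Cybb to its partner Cyba, a pair chosen after its values were seen, had a mean of −5.16 ± 0.48 at 18 mo and −3.01 ± 0.88 at 21 mo (SD, n = 3 each).

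**Figure D2:**
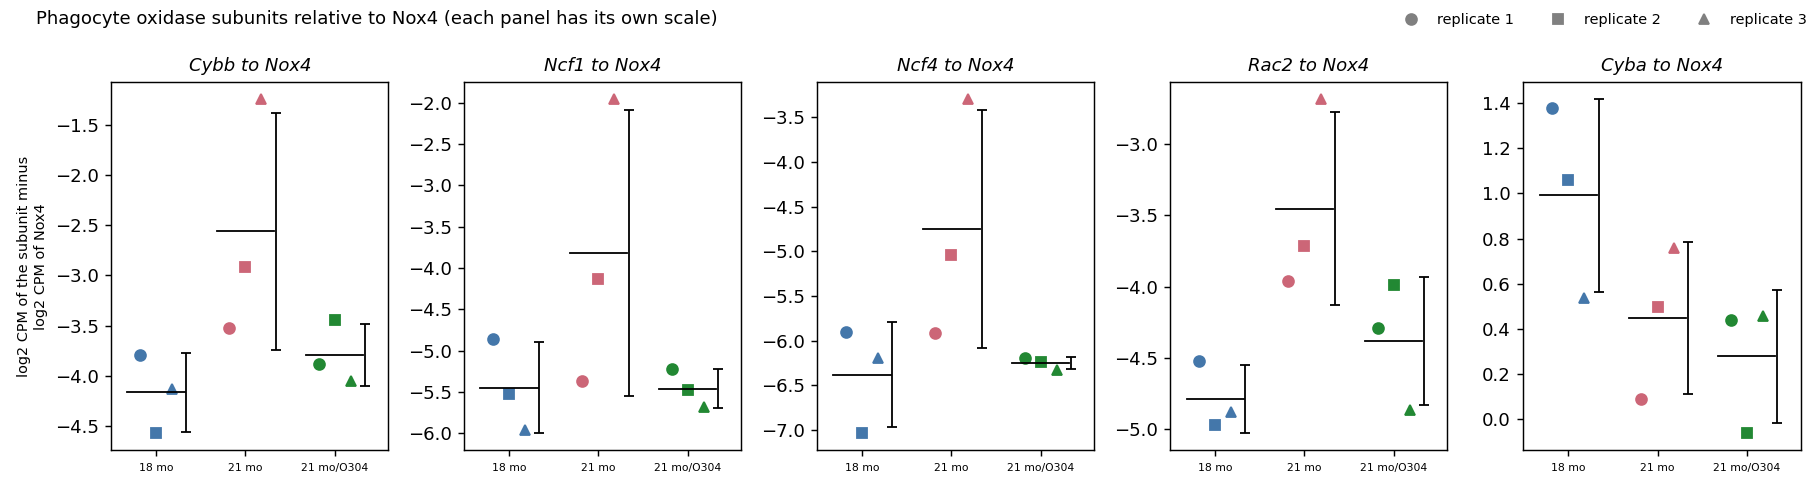
Log2 CPM of each phagocyte oxidase subunit minus log2 CPM of Nox4 in the same library (vertical axis, log2 units, a scale per panel), for the 3 groups. Points are mice, shaped by replicate number, with the group mean (line) and 1 SD (bar, n = 3): for Cybb the 21 mo mice lay from −3.52 to −1.25, above the 18 mo mice, and for Cyba the 18 mo and 21 mo mice overlapped.

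The wider oxidase machinery was taken as 12 further subunits and partners, and 6 of these had enough counts to be tested. In 21 mo against 18 mo, 0 of these 6 passed the threshold in edgeR (0.0189% of all genes), 3 had an unadjusted p under 0.05 (26.1% of all genes), and DESeq2 called 2 (11.7% of all genes). Cybc1, whose product is a chaperone of the pair of gp91phox and p22phox, was at 18.1 ± 0.916 CPM and 25.2 ± 4.24 CPM (SD, n = 3 each), a log2FC of 0.48 (SE 0.15, adjusted p = 0.102, edgeR). It overlaps Hexdc. Sh3pxd2b, a relative of the p47phox organizer found in cells without the phagocyte complex, was at 5.76, 5.67 and 6.84 CPM in the 18 mo mice and 9.10, 10.4 and 29.1 CPM in the 21 mo mice, a log2FC of 1.41 (SE 0.42, adjusted p = 0.0942, edgeR).

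Rac1, Poldip2 and Sh3pxd2a overlapped between the 18 mo and 21 mo groups. Rac1 serves the oxidases outside blood cells. It overlaps Daglb and Gm42502 on the opposite strand, so its reads carry the same doubt as those of Ncf1, and its log2FC was 0.13 (SE 0.12, adjusted p = 0.504, edgeR). Poldip2, which binds p22phox and is known as a partner of Nox4, had −0.36 (SE 0.18, adjusted p = 0.242, edgeR), and Sh3pxd2a 0.49 (SE 0.26, adjusted p = 0.261, edgeR). Among the 6 genes that did not pass the filter, Noxo1, the organizer of the Nox1 complex, had 0 to 15 counts and Noxa1, its activator, at most 2. Nox3, known from the inner ear, had 1 count in all. Duox1 had 0 to 8 counts, Duoxa2 1 count in all, and Duoxa1 13 counts, all of them in replicate 3 of the 21 mo group.

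The oxidase is switched on through receptors and kinases, and all 25 upstream regulators listed passed the filter. In 21 mo against 18 mo, 21 of them had a higher and 4 a lower fitted value, with a median of 0.85. None passed the threshold in edgeR, and 16 had an unadjusted p under 0.05, all higher, where 14% of all genes were higher at that p. The smallest p-values belonged to Fcgr1, Vav3 and Fcgr3. Fcgr1 and Fcgr3 encode receptors for the Fc part of IgG, through which phagocytes trigger the burst, and Vav3 encodes an exchange factor for Rac proteins. Fcgr3 was at 11.6 to 17.3 CPM in the 18 mo mice and 38.9, 59.8 and 271.9 CPM in the 21 mo mice, a log2FC of 3.11 (SE 0.65, adjusted p = 0.0626, edgeR) that was 1.77 without replicate 3 of the 21 mo group. For Fcgr1 the log2FC was 2.14 (SE 0.41) and for Vav3 1.27 (SE 0.26), with the same adjusted p of 0.0626. DESeq2 called Fcgr3 (adjusted p = 2.15e-05), Fcgr1 (adjusted p = 6.82e-05) and Vav3 (adjusted p = 0.000922), and 11.7% of all genes. Limma voom and edgeR with no filter on low counts also called these 3, and 52.9% and 2.04% of all genes. The 3 were chosen by their small p-values in these same data.

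The second comparison, 21 mo/O304 against 21 mo, asks how the oxidase genes stood after 12 weeks of the AMPK activator. It shares the 21 mo mice with the first comparison, so an opposite sign is not independent of it. Cybb, Ncf1, Ncf4 and Rac2 had lower fitted values in the mice given O304, and Cyba and Nox4 had higher ones, as did 48.2% of all genes. In edgeR 0 of the 6 members and 0% of all genes passed the threshold, and 2 had an unadjusted p under 0.05, both lower, against 20.7% of all genes (8.27% higher, 12.4% lower). DESeq2 called 0 of the members and 5.2% of all genes, and limma voom with sample quality weights called 2, Cyba and Ncf1, and 41.1%. Non-overlap was seen for 2 members, both lower, where 10.5% of all genes were lower and 10.8% higher without overlap. The median log2FC of the 5 phagocyte subunits was −0.80, and that of all tested genes was −0.02. The median of the subunits was −0.32 without replicate 3 of the 21 mo group and −1.15 without replicate 2 of the 21 mo/O304 group.

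Ncf1 had the largest difference under O304, at 6.43 to 8.70 CPM against 8.76 to 41.9 CPM at 21 mo, a log2FC of −1.49 (SE 0.50, adjusted p = 0.184, edgeR). The highest O304 mouse and the lowest 21 mo mouse differed by little. Ncf4 was at 3.90, 5.07 and 4.07 CPM in the mice given O304, all under the 5.95 CPM of the lowest 21 mo mouse, and its log2FC was −1.19 (SE 0.44, adjusted p = 0.200, edgeR). Leaving out replicate 1 of the 21 mo group brought both past the threshold, at −1.87 for Ncf1 and −1.45 for Ncf4, where 23.1% of all genes passed it. Leaving out replicate 3 gave −0.54 and −0.58.

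Cybb and Rac2 overlapped between these groups. Replicate 2 of the 21 mo/O304 group held 35.8 CPM of Cybb, more than 2 of the 3 mice given saline, and 24.6 CPM of Rac2. The log2FC of Cybb was −0.80 (SE 0.37, adjusted p = 0.257, edgeR), and ranged from −1.15 without that mouse to −0.32 without replicate 3 of the 21 mo group. Rac2, at 14.8, 24.6 and 11.4 CPM under O304, had a log2FC of −0.40 (SE 0.29, adjusted p = 0.423, edgeR). Cyba had 0.29 (SE 0.18, adjusted p = 0.349, edgeR) and Nox4 0.41 (SE 0.32, adjusted p = 0.457, edgeR), and both overlapped.

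Relative to Nox4, the ratios of Ncf4 and Rac2 did not overlap between the O304 and saline mice, and those of Cybb, Ncf1 and Cyba did. The log2 ratio of Cybb to Nox4 was −3.88, −3.45 and −4.05 in the mice given O304, a difference of −1.23 from the saline mice (exact permutation test, p = 0.2), which was −0.57 without replicate 3 of the 21 mo group and −1.71 without its replicate 1. Ncf4 to Nox4 differed by −1.50 and Rac2 to Nox4 by −0.93, both without overlap (exact permutation test, p = 0.1 for each, adjusted p = 0.273). The difference for Ncf1 to Nox4 was −1.64 (exact permutation test, p = 0.2). Without the same 2 mice in turn it was −0.71 and −2.41, that of Ncf4 was −0.77 and −2.08, and that of Rac2 was −0.55 and −1.18. Cyba to Nox4 differed by −0.17 (exact permutation test, p = 0.5).

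The partners gave lower values for 5 of 6 tested genes under O304, and 4 had an unadjusted p under 0.05, against 12.4% of all genes that were lower at that p. None of the 6 passed the threshold in edgeR. DESeq2, which called 5.2% of all genes here, called Sh3pxd2b. Among the 4 were Cybc1 at −0.47 (SE 0.15, adjusted p = 0.182), Sh3pxd2a at −0.86 (SE 0.26, adjusted p = 0.176) and Sh3pxd2b at −1.45 (SE 0.42, adjusted p = 0.175, edgeR), all as log2FCs and all without overlap. In all, 4 of the 6 tested partners were lower without overlap, against 10.5% of all genes. Rac1 stood at −0.01 and Poldip2 at 0.17. Of the 25 regulators, 22 had lower fitted values with a median of −0.47, and none passed the threshold in edgeR. At an unadjusted p under 0.05, 7 of them were lower, against 12.4% of all genes. Fcgr3, at 25.5 CPM on average in the mice given O304, had a log2FC of −2.28 (SE 0.63, adjusted p = 0.175, edgeR), Fcgr1 one of −1.49 (SE 0.40) and Vav3 one of −0.79 (SE 0.26). Without replicate 3 of the 21 mo group the log2FC was −0.94 for Fcgr3 and −0.84 for Fcgr1. DESeq2 called Fcgr3 (adjusted p = 0.00618) and Fcgr1 (adjusted p = 0.0166). Limma voom called Fcgr3, Fcgr1 and Vav3, and 41.1% of all genes. These 3 were again the regulators with the smallest p in these data.

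The third comparison, 21 mo/O304 against 18 mo, shows where the treated older mice stood beside the mice killed before treatment. None of the 6 members passed the threshold in edgeR or DESeq2, where 0% and 0.784% of all genes did, and 2 had an unadjusted p under 0.05, against 9.66% of all genes (4.33% higher, 5.33% lower). Fitted values were higher for 5 of the 6 and for 50.4% of all genes. The 2 were Cyba, lower in every mouse given O304 than in every 18 mo mouse, with a log2FC of −0.41 (SE 0.18, adjusted p = 0.510, edgeR), and Rac2, with 0.77 (SE 0.29, adjusted p = 0.460, edgeR) and overlapping groups. Non-overlapping groups were seen for Cyba alone among the members, while 13.2% of all genes were higher and 13.3% lower without overlap. The log2FCs of the others were 0.69 (SE 0.38) for Cybb, 0.30 (SE 0.50) for Ncf1, 0.35 (SE 0.45) for Ncf4 and 0.27 (SE 0.32) for Nox4, each with overlapping groups. These fits took the spread from all 9 libraries, the more variable 21 mo mice included. With only the 6 libraries compared, edgeR called 0.144% of all genes and none of the members. The log2 ratio of Cybb to Nox4 differed by 0.37 (exact permutation test, two-sided, p = 0.4), and that of Cyba to Nox4 by −0.72 without overlap (exact permutation test, p = 0.1). Of the 6 tested partners 0 passed the threshold in edgeR or DESeq2 and 0 had an unadjusted p under 0.05. Of the 25 regulators none passed it in edgeR, and 1 was higher and 2 were lower at an unadjusted p under 0.05. The smallest p-values were those of Vav2 at −0.52 (SE 0.12, adjusted p = 0.323), Rap1a at 0.49 (SE 0.12, adjusted p = 0.334) and Prkcd at −0.27 (SE 0.10, adjusted p = 0.464), as log2FCs in edgeR. Limma voom called Vav2 and Rap1a, and 2.61% of all genes. These regulators were picked by their small p in these data.

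**Figure D3:**
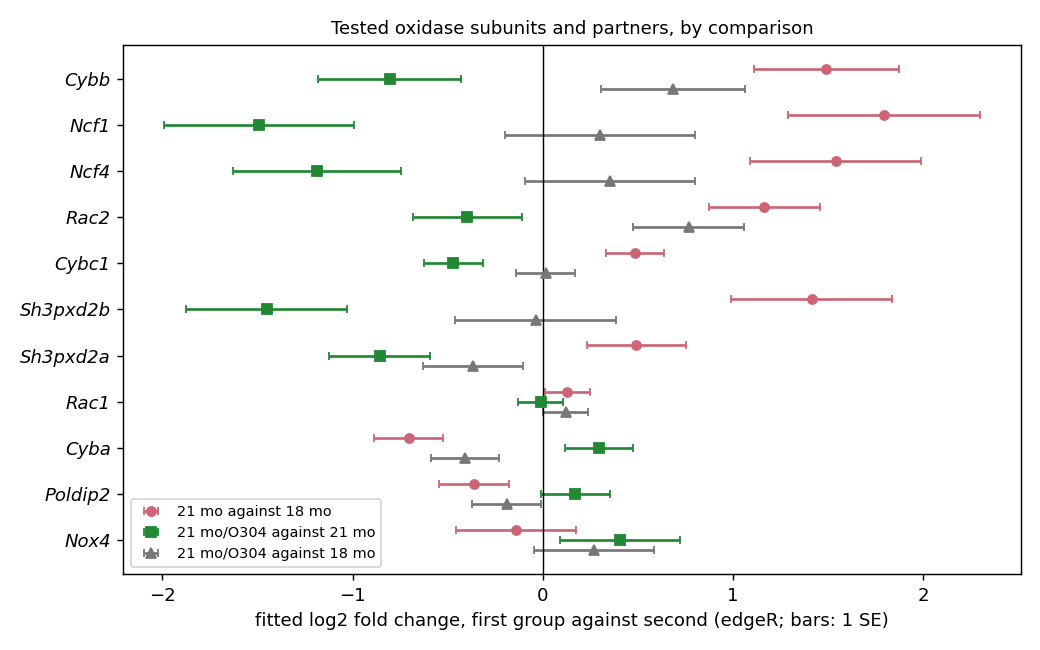
Fitted log2FC (horizontal axis, edgeR) of 11 tested oxidase subunits and partners in the 3 comparisons, with bars of 1 SE. No point passed an adjusted p of 0.05: in 21 mo against 18 mo, Ncf1 was highest at 1.79 and Cyba lowest at −0.71, and in 21 mo/O304 against 21 mo, which shares the 21 mo mice, Ncf1 was lowest at −1.49.

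Markers of the cell types of the kidney were set beside the oxidase genes. All 5 leukocyte markers, of which Cd52, Coro1a and Laptm5 are the most abundant per length, had higher fitted values in 21 mo against 18 mo without overlap, as did 13.5% of all genes. Their summed level ran from 105 to 136 CPM at 18 mo, from 178 to 391 CPM at 21 mo and from 145 to 206 CPM with O304. All 14 macrophage markers had higher fitted values too, 12 of them without overlap, and their sum, led by Lyz2, C1qa and C1qb, was 369 to 591 CPM at 18 mo, 869, 1360 and 4109 CPM in 21 mo replicates 1, 2 and 3 and 690 to 730 CPM under O304. None of these markers passed the threshold in edgeR, while 5 of 5 leukocyte and 12 of 14 macrophage markers had an unadjusted p under 0.05, where 14% of all genes were higher at that p. Under O304 against saline, all 5 leukocyte markers and 13 of the 14 macrophage markers had lower fitted values, 2 and 11 of them with an unadjusted p under 0.05 (12.4% of all genes). In 21 mo/O304 against 18 mo all 5 and all 14 had higher fitted values, 1 and 3 of them with an unadjusted p under 0.05 (4.33% of all genes). No marker of either list was at 0 in all libraries.

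Per 100 CPM of the leukocyte markers, Cybb was at 13.0, 10.9 and 15.5 CPM in the 18 mo mice, 15.6, 17.7 and 17.5 CPM in the 21 mo mice and 13.6, 17.4 and 13.5 CPM in the mice given O304. The 21 mo mice thus stood just above the 18 mo mice on this scale too, by much less than in CPM. Rac2 was at 7.79 to 9.17 CPM per 100 CPM of leukocyte markers at 18 mo and 6.45 to 11.5 CPM at 21 mo, and the groups overlapped. Per 100 CPM of the macrophage markers, Cybb was at 2.46 to 4.44 CPM in the 18 mo mice and at 3.65, 2.32 and 1.67 CPM in the 21 mo mice, where replicate 3 had the least. Ncf1 was at 1.16 to 1.59 CPM per 100 CPM of macrophage markers at 18 mo, 0.995 to 1.02 CPM at 21 mo and 0.881 to 1.26 CPM under O304. Per 100 CPM of leukocyte markers Ncf1 was at 6.13, 5.59 and 4.30 CPM in the 18 mo mice and 4.30, 7.59 and 10.7 CPM in the 21 mo mice, where replicate 3 had the most and the groups overlapped.

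Neutrophils carry the same oxidase. Of 11 listed markers 6 passed the filter on low counts, with S100a9, S100a8 and Retnlg the most abundant, and none of the 6 passed the threshold in edgeR. In 21 mo against 18 mo all 6 had a higher fitted value at an unadjusted p under 0.05, where 14% of all genes did. Of the 6, 5 were higher without overlap, against 13.5% of all genes, the exception being Retnlg. The summed level of all 11 was 7.64 to 13.8 CPM at 18 mo, 68.4, 21.6 and 67.7 CPM in 21 mo replicates 1, 2 and 3 and 14.7 to 24.0 CPM under O304, where all 6 had lower fitted values than with saline and 4 had an unadjusted p under 0.05 (12.4% of all genes). Ly6g, a defining marker, had 0 to 4 counts per library, and Elane, a marker of immature granulocytes, was at 0 in all libraries but 2. Replicate 1 of the 21 mo group, with as large a neutrophil sum as replicate 3, had 31.8 CPM of Cybb and 8.76 CPM of Ncf1 against 68.6 and 41.9 CPM in replicate 3.

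Nox4 is known from the proximal tubule, whose markers were compared in the same way. In 21 mo against 18 mo, 11 of 12 had lower fitted values, 6 without overlap (15.3% of all genes) and 5 with an unadjusted p under 0.05 (12% of all genes), and none passed the threshold in edgeR. Their sum, led per length by Ass1, Slc34a1 and Slc27a2, was 20519 to 26670 CPM at 18 mo, 20313, 9773 and 2766 CPM in 21 mo replicates 1, 2 and 3 and 22611 to 26652 CPM under O304, where all 12 had higher fitted values than with saline and 2 had an unadjusted p under 0.05 (8.27% of all genes). Nox4 was at 0.988, 1.03 and 1.48 CPM per 100 CPM of these markers in the 18 mo mice and at 1.81, 2.45 and 5.89 CPM in the 21 mo mice. It was at 1.29, 1.64 and 1.26 CPM under O304, so relative to these markers the 21 mo mice held the most Nox4. In CPM, without the marker sum, Nox4 overlapped between all groups. Its means were 282 CPM at 18 mo, 256 CPM at 21 mo and 340 CPM with O304. Cyba was at 2.14 to 2.58 CPM on the same scale at 18 mo and 1.92, 3.45 and 9.95 CPM in the 21 mo mice. The part of these cell types in the oxidase values was not tested.

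**Figure D4:**
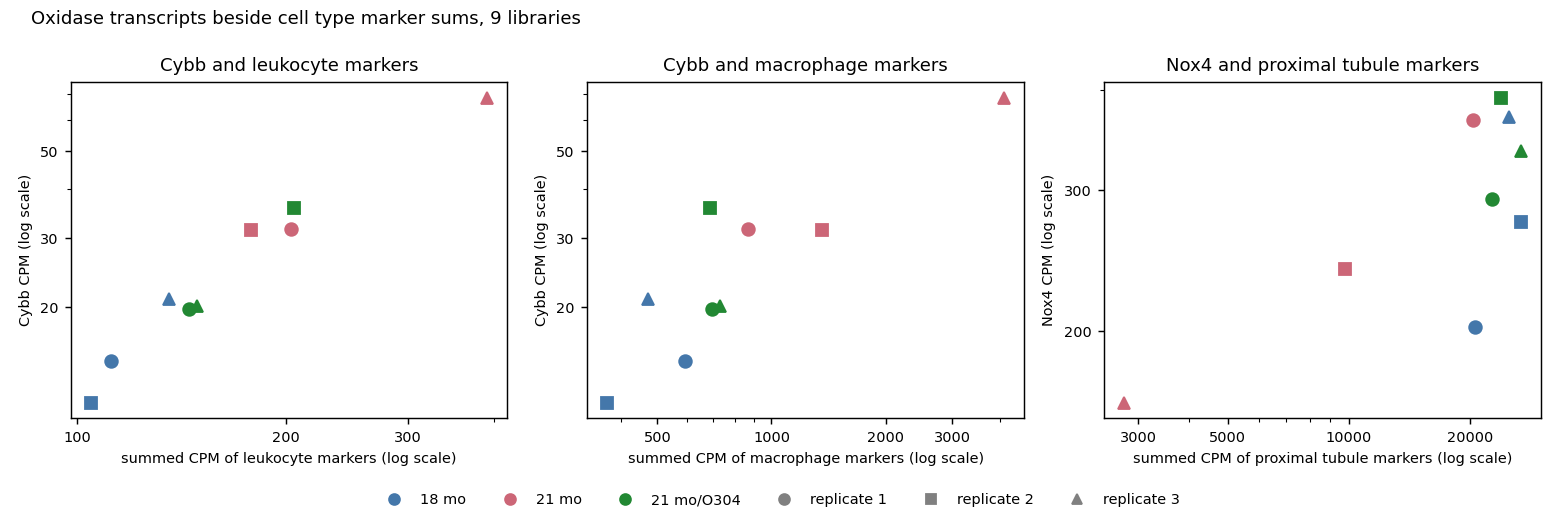
Cybb CPM against the summed CPM of 5 leukocyte markers (left) and of 14 macrophage markers (middle), and Nox4 CPM against the summed CPM of 12 proximal tubule markers (right), all axes logarithmic, 1 point per library, colored by group and shaped by replicate. Replicate 3 of the 21 mo group lay at one end of each panel, with 68.6 CPM of Cybb beside 391 and 4109 CPM of markers, and 163 CPM of Nox4 beside 2766 CPM.

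In the same comparison, the other marker lists gave no marker past the threshold. By fitted value, for T cells 7 of 8 markers were higher and 0 had an unadjusted p under 0.05, and for B and plasma cells 4 of 5 tested were higher, again with 0 under it. The fitted value was higher for all 7 fibroblast markers, of which 3 had an unadjusted p under 0.05 (14% of all genes). Podocyte markers were higher in 4 of 4, endothelial markers lower in 5 of 5, and markers of the thick limb, distal tubule and collecting duct higher in 4 of 7. Adipocyte markers were higher in 2 of 4 tested, and in 4 of 4 under O304 against saline, of which 3 had an unadjusted p under 0.05 (8.27% of all genes). Of these, Adipoq and Plin1 reached the filter mainly through the O304 group, so their direction was partly fixed by it. Adipoq was at least 1.97 CPM with O304 and at most 0.504 CPM at 21 mo, and Plin1 at least 1.13 and at most 0.114 CPM. The summed adipocyte level was 106 to 204 CPM under O304 and 31.7 to 129 CPM at 21 mo.

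The genes most like Cybb and Nox4 over the 9 libraries were taken by Pearson's r of log2 CPM among 13156 other protein-coding genes with a mean of at least 1 CPM. The libraries share groups and 1 mouse that stands apart, so the values are a description. For Cybb they were Cd53 (r = 0.989, Spearman's rho = 0.950), Mpeg1 (r = 0.986, rho = 0.883), Sla (r = 0.985, rho = 0.967), Pik3cg (r = 0.985, rho = 0.933) and Lpxn (r = 0.985, rho = 0.883). Cd53, one of the 5 leukocyte markers above, encodes a tetraspanin and Mpeg1 a pore-forming protein of macrophages. For Nox4 they included Tanc2 (r = 0.947, rho = 0.917), Slc4a4 (r = 0.947, rho = 0.900) and Mgme1 (r = 0.943, rho = 0.883). Slc4a4 encodes the sodium bicarbonate cotransporter of the proximal tubule, at 38.5 to 114.3 FPKM.

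Within the oxidase, the same measure was taken between the subunits. Cybb had r = 0.957 with Ncf4 (rho = 0.933), 0.915 with Rac2 (rho = 0.950) and 0.861 with Ncf1 (rho = 0.717). With Cyba it had r = −0.922 (rho = −0.833), and with Nox4 r = −0.238 (rho = 0.167). Cyba and Nox4, whose products form 1 enzyme, had r = 0.355 (rho = 0.200). All are over the same 9 libraries, with no p given.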

How the data were processed

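RNA from 9 mouse kidneys, 3 per group, was analysed from the table of 54532 genes. The authors aligned reads with HISAT2 2.0.5 and counted them with featureCounts 1.5.0-p3, so the deposited counts are unscaled whole numbers. The submitters' processing notes name GRCm38 (mm10) as the build. The strand setting and the treatment of reads with several positions are not given in the sources used here. FPKM values were also deposited, which the authors scaled by gene length and by a library size unequal to the sum of the counts. The table also holds the authors' DESeq2 comparisons (fold changes, p-values and group means), which were not used. Groups came from sample titles, and columns from sample descriptions.

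Genes were filtered with edgeR's filterByExpr (minimum count 10, minimum total 15), scaled by TMM and tested with edgeR 4.0.16 in R 4.3.3, using 3 group means. Log2 CPM had a prior count of 2. Alternatives were DESeq2 1.42.0, limma 3.58.1 (voom with quality weights, or trend on log2(FPKM + 1) and log2(FPKM + 0.1) at a mean FPKM of at least 0.5), other scalings and filters, the replicate number as a block, and leaving out each library. The members and the gene lists (partners, regulators and 11 lists of cell type markers) were chosen with earlier results of these data known. Named genes were the 8 members, the listed partners, the 3 regulators with the smallest p per comparison, the 5 protein-coding genes most like Cybb and the 5 most like Nox4, and the 3 most abundant markers of a list. Some genes that this rule names are not reported here, though the counts of the lists include them.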

Additional observations from a re-analysis of the deposited data

How the results depend on the processing

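Among values of single genes, leaving out a library kept the direction and the side of the threshold in 456, brought 23 past it and reversed 7, and the other settings gave 491, 48 and 1. In 21 mo against 18 mo, 0 of the 8 members passed the threshold in the edgeR test, against 5 with DESeq2, 3 with no filter on low counts and 5 with limma voom and sample quality weights. For the 20 oxidase subunits and partners the numbers were 7, 4 and 10. Over all genes these settings called 2023, 576 and 8409, against 3 in the edgeR test. Leaving out 1 library gave 0 to 5 members and 0 to 9 subunits and partners, the highest without replicate 1 of the 21 mo group, where 4186 genes were called in all. The median log2 fold change of the phagocyte subunits moved from 1.49 to 0.94 with voom, and ranged from 0.93 without replicate 3 of the 21 mo group to 1.77 without replicate 3 of the 18 mo group. In 21 mo/O304 against 21 mo, the median ranged from −1.15 to −0.32 with 1 library left out, voom called 2 members (Cyba and Ncf1) and 7 subunits and partners, and DESeq2 called 1, while leaving out 1 library gave 0 to 2 and 0 to 6. Over all genes voom called 6528, DESeq2 896 and the setting with no filter 17, against 0. In 21 mo/O304 against 18 mo, the phagocyte median ranged from 0.24 to 0.73 with 1 library left out, DESeq2 called 118 genes, voom 415 and a fit to the 6 libraries compared 22, none of them a member. The direction of Nox4 in 21 mo against 18 mo ranged from −0.47 to 0.12 with 1 library left out. In 21 mo/O304 against 21 mo Rac1 ranged from −0.047 to 0.029, and in 21 mo/O304 against 18 mo Cybc1 ranged from −0.046 to 0.10, Sh3pxd2b from −0.19 to 0.12, the ratio of Ncf1 to Nox4 from −0.27 to 0.28 and that of Ncf4 to Nox4 from −0.20 to 0.37. The cause was not tested.

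Same-numbered mice did not deviate together in every pair, and the labels do not tie the numbers to a litter or batch. The correlation of their deviations from the group means was −0.13 to 0.17 over 9 pairs, 5 of them over 0.1, and 4 of 9 libraries correlated best with a library of their own number. With the replicate number as a block, 0 members passed the threshold in every comparison, the phagocyte median was 1.45, −0.71 and 0.46 in the order of the comparisons, and Sh3pxd2b in 21 mo/O304 against 18 mo changed sign, to 0.0092. For Nox1, Duox2 and the other genes with 15 counts or fewer, the depth sets the limit.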

Other observations

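Replicate 3 of the 21 mo group held most reads of Mpo, Elane and Duoxa1, genes set side by side after their values were seen. Mpo, the myeloperoxidase that uses the hydrogen peroxide of the burst, had 11 counts there and at most 1 in each other library. Elane, a granule protease, had 6 counts there, 1 in replicate 1 of the 21 mo/O304 group and 0 elsewhere. Duoxa1, the maturation factor of Duox1, had 13 counts there and 0 in the other 8 libraries, while Duox1 itself had 0 counts in that library and 0 to 8 in the others. In the authors' coordinates Duox1 lies 1941 bases from Duoxa1 on chromosome 2, and Duoxa1 and Duoxa2 overlap on opposite strands. In the RefSeq gene models Duoxa1 overlaps Duox1 instead, on opposite strands, and not Duoxa2. With 13 counts or fewer behind each of these values, no test was made.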
